A study of Saccharomyces cerevisiae with 36 samples.

Results

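The comparison set 2 rRNA-depleted RNA-seq libraries of haploid wild-type SK1 cells (strain YAM1977) against 2 of wild-type S288C cells (strain YAM1), 4 of the 36 samples of a series on RNA decay in budding yeast. Libraries were chosen by their labels, and all 9765 features of the deposited table entered the comparison. Of these, 9712 passed a filter on low values, among them 5760 of 5798 mRNAs and 3560 of 3570 long non-coding RNAs (lncRNAs). The lncRNAs are XUTs, which accumulate without the cytoplasmic exonuclease Xrn1, CUTs, which the nuclear exosome degrades, and SUTs, which are stable and otherwise unannotated. Other libraries, 2 per group, served to set the strain difference beside further ones. These were xrn1 deletion cells of haploid SK1 (YAM2087) and of S288C (YAM6), a wild type labelled diploid SK1 (YAM2067), wild-type W303 (YAM92), and another pair of YAM1 libraries, the control of the upf1 experiment. The labels used here give no mating type, auxotrophic marker or growth medium. Each group is a single strain, so mating type and strain background cannot be told apart.

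S288C is the strain of the yeast reference genome, and SK1 is used for meiosis because its diploids sporulate fast and efficiently. As background, S288C is known for a Ty insertion in the activator gene HAP1 and for a nonsense mutation in FLO8, an activator of adhesion genes. It also carries an array of sodium pump genes and a cluster of asparaginase genes that many other strains lack. These properties were described elsewhere and were not examined here.

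Values are densities, the reads per nucleotide that the authors scaled so that the summed snoRNA signal was equal in every library. Changes are on the log2 scale (density plus a pseudocount of 0.00577), SK1 minus S288C. The standard error (SE) is that of a linear model over 24 rRNA-depleted libraries. Besides the groups named above, these were wild-type and dcp2 mutant cells at 37C, upf1 cells, and xrn1 cells of W303 and of SK1 labelled diploid. The spread was estimated over all of them. A feature is said to have risen or fallen in SK1 where the adjusted p was under 0.05 (limma, Benjamini-Hochberg over 9712 features). The SK1 libraries held 39283823 and 27821942 reads on features, and the S288C libraries 24385661 and 50120229. Log densities of replicates correlated across features with a Pearson r of 0.991 in SK1 and 0.994 in S288C. Nothing in the files says how separate the replicate cultures were, beyond the label of biological replicates. SK1 reads were counted on features of the reference annotation, so a gene that SK1 lacks, or whose sequence has diverged, and a gene that is not expressed cannot be told apart. Nor can fewer cells with a transcript and less of it per cell. Cells without Xrn1 gave the same strain contrast in libraries of their own. There, chromosome 11 was lower in SK1 as a whole (median mRNA change -1.01, against -0.15 to 0.00 on the others), and values of its genes, such as STE6, STE3, FLO10 and PTR2, carry that offset. Libraries labelled diploid SK1, set against the other YAM1 pair at equal mRNA medians, gave a contrast that shares no library with the wild types compared. These SK1 libraries carried alpha-cell markers, with SAG1 at 1.52 and 3.56 and STE3 at 0.269 and 0.925, beside HMRA1 at 0.0629 and 0.0302. GPA1 was at 0.0288 and 0.0740 in them, against 0.483 and 0.375 in haploid SK1. In that contrast 35.1% of all mRNAs were called higher and 36% lower. Positions and sequences below are those of R64, the S288C reference.

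Of 5760 mRNAs, 1098 rose in SK1 (19.1%), 1708 fell (29.7%) and the median was -0.11. By at least 2-fold, 372 rose (6.46%) and 312 fell (5.42%). Rises made up 39.1% of the calls on the deposited scale, 49.5% with libraries scaled to equal mRNA medians and 55.5% with libraries scaled to equal total reads, which moved the mRNA median by 0.10 and 0.15. At equal mRNA medians 31.4% of mRNAs rose and 32% fell, and at equal total reads 33.8% rose and 27.1% fell, so the balance of rises and falls depended on the scale. Among lncRNAs 1004 rose (28.2%) and 895 fell (25.1%) of 3560, and by at least 2-fold 464 rose (13%) and 420 fell (11.8%). Without SK1 replicate 2, 1156 mRNAs rose and 1061 fell, and without SK1 replicate 1, 861 rose and 1943 fell. Counts of gene list members below stand beside the 19.1% and 29.7% of all mRNAs on the deposited scale. In xrn1 cells, 17.2% of all mRNAs were called higher and 30.5% lower. At equal mRNA medians, libraries labelled diploid against the other YAM1 pair gave 35.1% and 36.0%. Haploid SK1 against that pair, on the same scale, gave 33.7% and 38.8%. Counts of list members in those contrasts stand beside these shares.

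The sequences below stand upstream of genes of the mating and phosphate pathways described next, and are shown because those pathways hold the extremes of the comparison. Capitals mark TGAAACA, the pheromone response element that Ste12 binds, or CACGTG, which Pho4 of the phosphate pathway and Cbf1 of methionine synthesis bind. Each sequence is given on the strand of its gene.
MFA2 (chr14:352210-352234, plus strand): gaacgaaaaTGAAACAtgcatgtca
STE2 (chr6:82374-82398, plus strand): agtacatgaTGAAACAcatatgaag
BAR1 (chr9:322149-322173, plus strand): cagctattcTGAAACAcaccacatt
FUS1 (chr3:71607-71631, plus strand): gtgcgatgaTGAAACAaacatgaaa
PHO84 (chr13:26222-26245, minus strand): taatagttcCACGTGgacgtgtta
PHO84 (chr13:26200-26223, minus strand): tatttccagCACGTGgggcggaaa
SPL2 (chr8:375447-375470, minus strand): atttttgctCACGTGaccgacaag
PHO5 (chr2:431190-431213, minus strand): tggcactcaCACGTGggactagca
PHO12 (chr8:551807-551830, plus strand): tggcgttcaCACGTGggtttaaaa

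Haploid yeast cells are of type a or alpha, set by the cassette at the MAT locus. Alpha cells make alpha-factor and the receptor for a-factor, and a cells the converse. The SK1 libraries held alpha-cell transcripts and the S288C libraries a-cell transcripts. MF(ALPHA)1, which encodes the main alpha-factor precursor (chr16:193648-194145, plus strand), had densities of 7.44 and 7.61 in SK1 against 0.00180 and 0.00391 in S288C, the largest rise named (log2 change 9.78, SE 0.65, adjusted p = 3.03e-08). STE3, the receptor for a-factor, had 3.69 and 3.52 in SK1 against 0.0140 and 0.0121 in S288C (7.58, SE 0.57). The strains lay far apart for these genes and for the remaining alpha-cell genes, MF(ALPHA)2 (6.57, SE 0.26) and SAG1, the alpha-agglutinin (6.35, SE 0.28). All 4 alpha-cell genes rose.

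All 7 a-cell genes fell in SK1, with a median change of -6.54. MFA2, a gene for the a-factor precursor (chr14:352414-352530, plus strand), had densities of 0.0133 and 0.0171 in SK1 against 12.2 and 13.3 in S288C (-9.25, SE 0.45, adjusted p = 8.51e-10). STE2, the alpha-factor receptor, had 0.0238 and 0.0222 in SK1 against 4.65 and 4.85 in S288C (-7.37, SE 0.19). BAR1, the protease that degrades alpha-factor, had 0.0163 and 0.0146 in SK1 against 1.92 and 2.01 in S288C (-6.54, SE 0.19). No SK1 value of these genes came near an S288C value. The others were AGA2, the binding subunit of a-agglutinin (-7.06), MFA1 (-5.93), the a-factor exporter STE6 (-5.25) and ASG7 (-3.90). In the 500 bases upstream of the start codon, all 7 hold TGAAACA on either strand, as do 11 of 15 pheromone-induced genes, 2 of 4 alpha-cell genes and 11.7% of 5700 nuclear mRNAs. These are letters of the reference, and SK1 promoters were not examined.

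**Figure D1:**
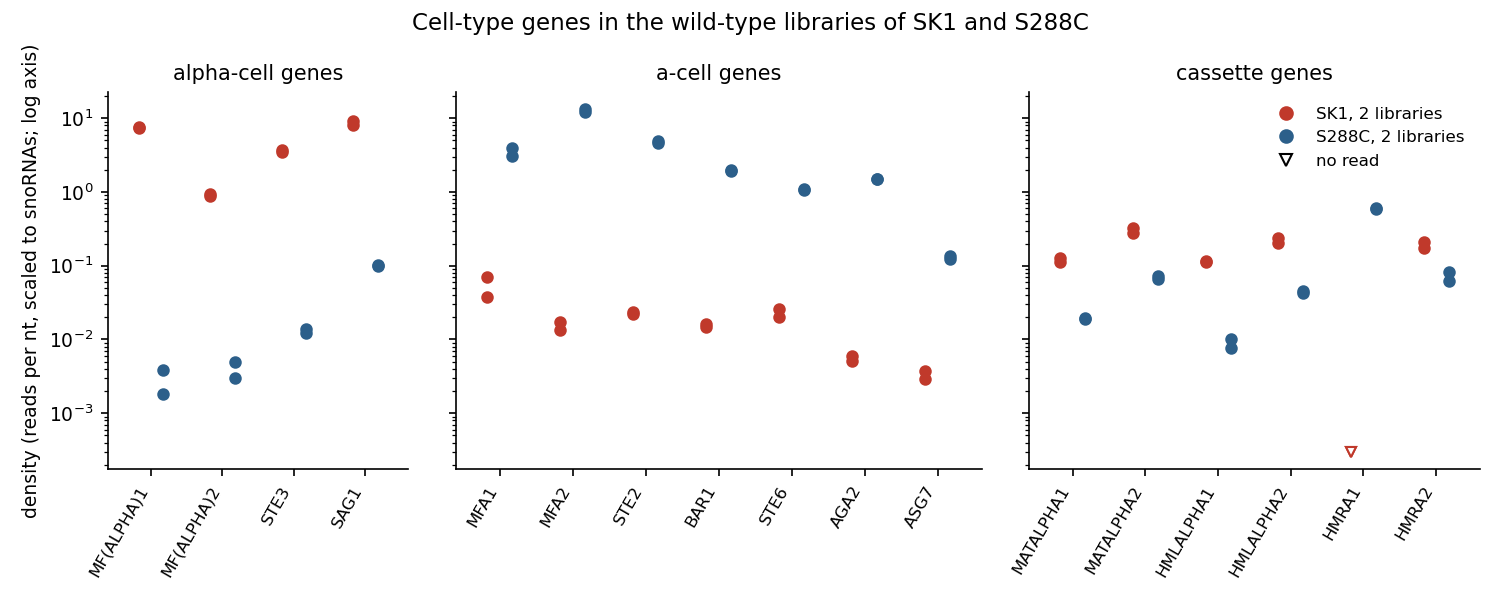
Density (reads per nucleotide scaled to snoRNAs, log axis) of the alpha-cell, a-cell and cassette genes in each of the 2 SK1 libraries (left of each pair) and the 2 S288C libraries (right). The strains do not overlap for any of these genes, and HMRA1 had no read in SK1.

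The cassette genes differed as well. HMRA1, the a1 gene annotated at the silent HMR locus, had 0 and 0 reads in SK1 against 660 and 1336 in S288C, which places it at least 292-fold lower against a floor of 3 reads per library. MATALPHA1, the alpha1 activator, had 0.129 and 0.111 in SK1 against 0.0187 and 0.0197 in S288C (2.33, SE 0.27), and HMLALPHA1 had 0.116 and 0.113 in SK1 against 0.00766 and 0.0102 in S288C (3.04, SE 0.27). MATALPHA2 (2.04), HMLALPHA2 (2.17) and HMRA2 (1.33) rose too. Copies of a cassette share sequence and reads, so these values do not give the locus that a transcript came from.

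Of 9 genes specific to haploids of either type, none rose and 3 fell, where 19.1% of all mRNAs rose and 29.7% fell. GPA1, STE4 and STE18, the subunits of the G protein that relays the pheromone signal, had changes of -0.12, 0.07 and 0.17, which did not pass the test. NEJ1, a regulator of DNA end joining, fell by 0.79, a call that ended on both other scales, and RME1, a repressor of meiosis, by 1.05. Both calls also ended without SK1 replicate 2 (-0.50 for NEJ1 and -0.96 for RME1) and without S288C replicate 2 (-0.84 and -0.998), which left 1 of the 9 lower, and that of NEJ1 without S288C replicate 1 (-0.74). HO, the endonuclease that switches mating type, had densities of 0.0184 and 0.0158 in SK1 against 0.374 and 0.346 in S288C (-4.003, SE 0.13, adjusted p = 2.49e-17).

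Of 15 pheromone-induced genes 9 rose and none fell, with a median change of 0.42. PRM3, needed for nuclear fusion, had 0.239 and 0.227 in SK1 against 0.0145 and 0.0167 in S288C (3.48, SE 0.22). FIG1 rose by 1.88, PRM1, which acts in cell fusion, by 1.45, and KAR4, a partner of Ste12, by 1.05. FUS1, shown above with its response element, had 0.194 and 0.190 in SK1 against 0.152 and 0.169 in S288C, a change of 0.25 that missed the threshold (adjusted p = 0.523). FUS1 was named after its values were seen. Without SK1 replicate 1, 5 of the 15 rose. Set against W303 instead, with the same SK1 libraries, all 15 were called higher, where 22.7% of all mRNAs were. Set against the other YAM1 pair, with libraries scaled to equal mRNA medians, 12 were called higher (33.7% of all mRNAs) and 1 lower (38.8%). Comparisons with that pair below are scaled in the same way.

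The phosphate genes held the other extreme. When phosphate is scarce, Pho81 inhibits the kinase Pho80-Pho85, Pho4 stays in the nucleus, and genes for phosphate uptake, secreted phosphatases and polyphosphate synthesis are switched on. Of 19 genes listed, 15 fell in SK1 and 4 rose, the median was -2.65, and 13 fell by at least 2-fold. PHO84, the high-affinity phosphate transporter (chr13:24037-25800, minus strand), had densities of 0.00676 and 0.00796 in SK1 against 12.1 and 11.7 in S288C (-9.82, SE 0.32, adjusted p = 9.92e-13), the largest fall named. PHO89, a sodium-coupled phosphate transporter, fell by 4.47.

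Among secreted acid phosphatases, PHO5 had 0.0617 and 0.0593 in SK1 against 1.51 and 1.56 in S288C (-4.54, SE 0.14) and PHO12 had 0.0124 and 0.0131 in SK1 against 1.14 and 1.16 in S288C (-5.96, SE 0.13). PHO11 fell by 4.20, and PHO11 and PHO12 are near-identical copies between which reads can be split. PHO3, the acid phosphatase gene beside PHO5 that phosphate starvation is not known to induce, had 4.08 and 3.79 in SK1 against 2.10 and 2.12 in S288C and rose (0.90, SE 0.16).

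SPL2, which curbs low-affinity phosphate uptake, fell by 5.63 and PHM6 by 4.02. The subunits of the vacuolar polyphosphate polymerase all fell, VTC3 by 3.86, VTC1 by 3.05, VTC4 by 2.64 and VTC2 by 1.73. VTC1, the most abundant of them in both strains, had 1.99 and 1.91 in SK1 against 16.6 and 15.8 in S288C. The vacuolar phosphatase PHO8 fell by 1.99, PHO81 by 2.65, PHO86, which PHO84 protein needs to leave the endoplasmic reticulum, by 0.94, and PHO4 by 0.92. Besides PHO3, the members that rose were PHM8 (1.32), PHM7 (0.61) and GIT1, a glycerophosphoinositol transporter (0.45).

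All 19 members are given, beyond the naming rule, with their values known. The list had 4 members higher and 15 lower on all 3 scales. The call of GIT1 ended without SK1 replicate 1 (0.41), SK1 replicate 2 (0.48) or S288C replicate 1 (0.34), and that of PHM7 without SK1 replicate 1 (0.23) or S288C replicate 1 (0.57). Of the 19 promoters 13 hold CACGTG within 500 bases, against 6.35% of all 5700 and 13.3% of the 308 that belong to mRNAs lower by at least 2-fold. In xrn1 cells, which share no library with the wild types, 5 members were called higher (17.2% of all mRNAs) and 14 lower (30.5%), and PHO84 differed by -8.42.

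**Figure D2:**
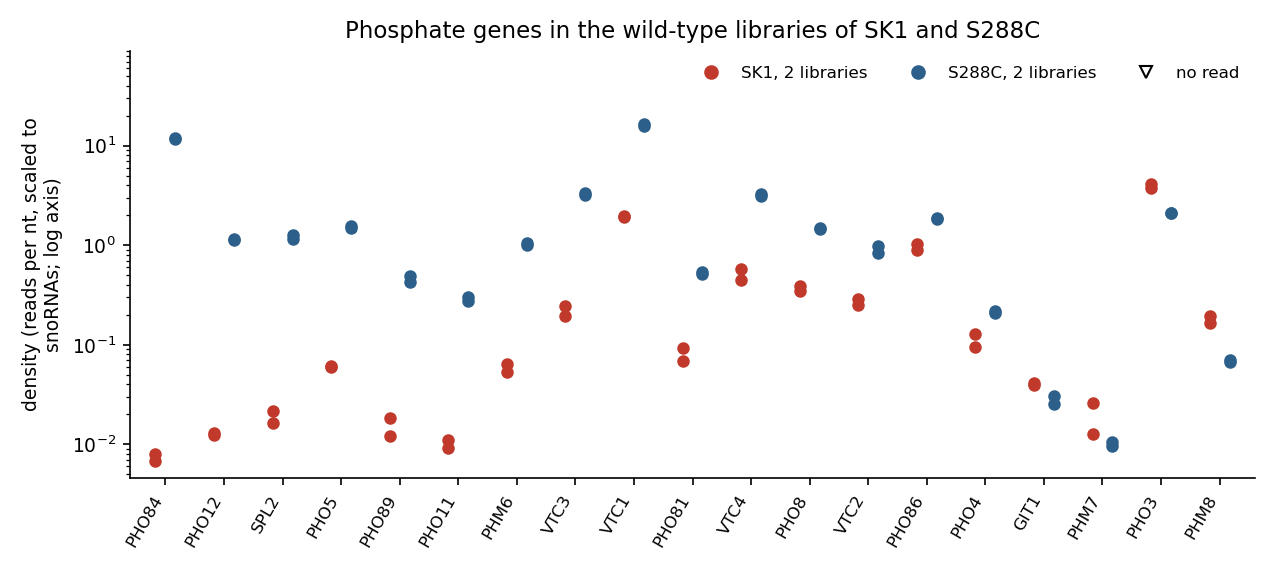
Density (reads per nucleotide scaled to snoRNAs, log axis) of the 19 phosphate genes in each of the 2 SK1 libraries (left) and the 2 S288C libraries (right). Of these genes 15 lie lower in both SK1 libraries, with the widest gap at PHO84, and PHM8, PHO3, PHM7 and GIT1 lie higher.

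Several genes used as laboratory markers were near 0 in S288C. LEU2, of leucine synthesis, had densities of 2.89 and 3.82 in SK1 against 0.00123 and 0.000987 in S288C (8.92, SE 0.13). MET17, of methionine synthesis, had 3.37 and 3.07 in SK1 against 0.000673 and 0.00113 in S288C (8.92, SE 0.11), and URA3, of uracil synthesis, had 0.696 and 0.680 in SK1 against 0.00726 and 0.00269 in S288C (6.05, SE 0.19). In S288C the means of these 3 genes lie under the pseudocount, so the size of their changes depends on it. With a pseudocount of 0.000577, that of MET17 was 11.102 and that of LEU2 10.95, and with one of 0.0364 they were 6.44 and 6.48. The same holds for 45 of the 179 features named, whose mean in either strain is under the pseudocount. HIS4, of histidine synthesis, went the other way, with 0.177 and 0.162 in SK1 against 2.09 and 2.06 in S288C (-3.57, SE 0.13). Of 10 markers 4 rose and 3 fell: ADE2 rose by 0.70, LYS2 and TRP1 fell by 0.59 and 0.34, and HIS3, ARG4 and CAN1 did not pass the test. The call of TRP1 ended without SK1 replicate 2 (-0.25), S288C replicate 1 (-0.32) or S288C replicate 2 (-0.35), and ARG4 passed without SK1 replicate 2 (0.57).

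The respiratory chain and the TCA cycle were higher in SK1. Their nuclear genes are known to be repressed by glucose and activated by the Hap2-5 complex and, for some, by Hap1. Among 43 genes, 35 rose (30 of them at least 2-fold) and 1 fell, and the median was 1.21. CYT1, cytochrome c1, had densities of 3.71 and 2.30 in SK1 against 0.334 and 0.317 in S288C (3.14, SE 0.18), and RIP1, the Rieske iron-sulfur protein, had 4.54 and 3.65 in SK1 against 0.615 and 0.573 in S288C (2.76, SE 0.16). QCR10 (2.26) and QCR7 (2.07) of the same complex rose as well. In cytochrome c oxidase COX12, COX5A and COX8 rose by 2.26, 2.20 and 2.18. In SK1 replicate 1 CYT1 and RIP1 stood above replicate 2, and both replicates stood above S288C.

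COX5A and the members that did not follow were picked out after their values were seen. CIT2, the peroxisomal citrate synthase, had 0.468 and 0.238 in SK1 against 0.626 and 0.710 in S288C and fell (-0.98, SE 0.22). COX5B, the hypoxic partner of COX5A, had 0.538 and 0.341 in SK1 against 0.471 and 0.496 in S288C and missed the threshold (-0.17, adjusted p = 0.369). The mitochondrial citrate synthase CIT1 (0.48) and the aconitase ACO1 (-0.02) missed it too. COX5B passed as lower without SK1 replicate 1 (-0.50), and CIT1 as higher without SK1 replicate 2 (1.16). On both other scales 40 rose and 1 fell.

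Hap1 is a heme-dependent activator. Of 15 genes in the list of HAP1 and its reported targets, 8 rose and 2 fell. CYC1, iso-1-cytochrome c, had 11.9 and 9.95 in SK1 against 1.02 and 0.967 in S288C (3.44, SE 0.13), and CYB5, cytochrome b5, had 6.34 and 7.85 in SK1 against 1.59 and 1.63 in S288C (2.13, SE 0.13). The falls were those of HAP1 itself, with 0.125 and 0.144 in SK1 against 0.488 and 0.481 in S288C (-1.81, SE 0.13), and of YHB1, a flavohemoglobin that detoxifies nitric oxide, with 0.146 and 0.117 in SK1 against 4.83 and 4.84 in S288C (-5.15, SE 0.15). HAP1 and YHB1 mRNA were thus lower where the cytochrome mRNAs were higher. Without SK1 replicate 1, or without S288C replicate 2, 5 of the 15 rose. The Hap1 motif, searched on both strands, is in none of the 15 promoters and in 20 of 5700, which says only that its letters are not in that window.

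Of 25 ergosterol pathway genes, some of them Hap1 targets, 14 rose and 3 fell (median 0.42). ERG28, a scaffold for the C-4 demethylation enzymes, rose by 2.50, and the desaturase ERG5 had 4.37 and 4.70 in SK1 against 1.39 and 1.38 in S288C (1.71, SE 0.13). The activators UPC2 and ECM22 fell by 1.12 and 1.27. On both other scales 19 rose and 3 fell, and against the other YAM1 pair 15 were higher and 9 lower. Without SK1 replicate 1, 9 rose.

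Genes of the mitochondrial ribosome rose together. Among 56 genes, 53 rose (25 of them at least 2-fold), none fell, and the median was 0.97. MRPL32 had 0.607 and 0.666 in SK1 against 0.238 and 0.235 in S288C (1.40, SE 0.12), and MRPS35 had 0.836 and 0.837 in SK1 against 0.317 and 0.314 in S288C (1.39, SE 0.12). On both other scales all 56 rose, and against the other YAM1 pair 55 were higher and none lower.

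Of 8 genes that mitochondrial DNA encodes 4 rose and 1 fell. OLI1, a subunit of the ATP synthase, had 28.8 and 27.9 in SK1 against 15.3 and 14.6 in S288C (0.92, SE 0.10), and COX2 (1.13) and COB (0.98) rose as well. ATP8 had 0.346 and 0.198 in SK1 against 0.00611 and 0.00441 in S288C (4.60, SE 0.54), and its change against the other YAM1 pair was 1.66. VAR1, a protein of the mitochondrial ribosome, fell (-1.27, SE 0.23).

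Among 22 glycolysis and fermentation genes, 4 rose, 9 fell and the median was -0.22. In xrn1 cells 8 were higher (17.2% of all mRNAs) and 7 lower (30.5%), and of the 20 off chromosome 11, 8 were higher and 5 lower. In the libraries labelled diploid against the other YAM1 pair, 10 were higher (35.1% of all mRNAs) and 5 lower (36.0%). ADH2, the alcohol dehydrogenase that consumes ethanol and is repressed by glucose, had 4.66 and 3.40 in SK1 against 0.0236 and 0.0250 in S288C (7.05, SE 0.24, adjusted p = 1.43e-14). HXK1, a hexokinase that glucose represses, had 3.00 and 1.48 in SK1 against 0.270 and 0.289 in S288C (2.89, SE 0.26), whereas HXK2, the main hexokinase on glucose, had 6.47 and 6.50 in SK1 against 13.5 and 13.8 in S288C (-1.08, SE 0.13). The enolase gene ENO1 rose by 1.41 while its paralog ENO2 fell by 1.199, and the pyruvate decarboxylase gene PDC5 rose by 2.27. With the libraries labelled diploid in place of haploid SK1, at equal mRNA medians, the change of ENO2 turned to 0.44.

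Of 17 hexose transporters and sensors tested, 8 rose and 3 fell, and in xrn1 cells 7 were higher and 7 lower. HXT1, a low-affinity transporter induced by high glucose, had 0.212 and 0.304 in SK1 against 2.68 and 2.56 in S288C (-3.34, SE 0.17). HXT2, a transporter induced by low glucose, had 6.98 and 6.33 in SK1 against 2.52 and 2.38 in S288C (1.44, SE 0.17), but against the other YAM1 pair its change was 0.12.

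**Figure D3:**
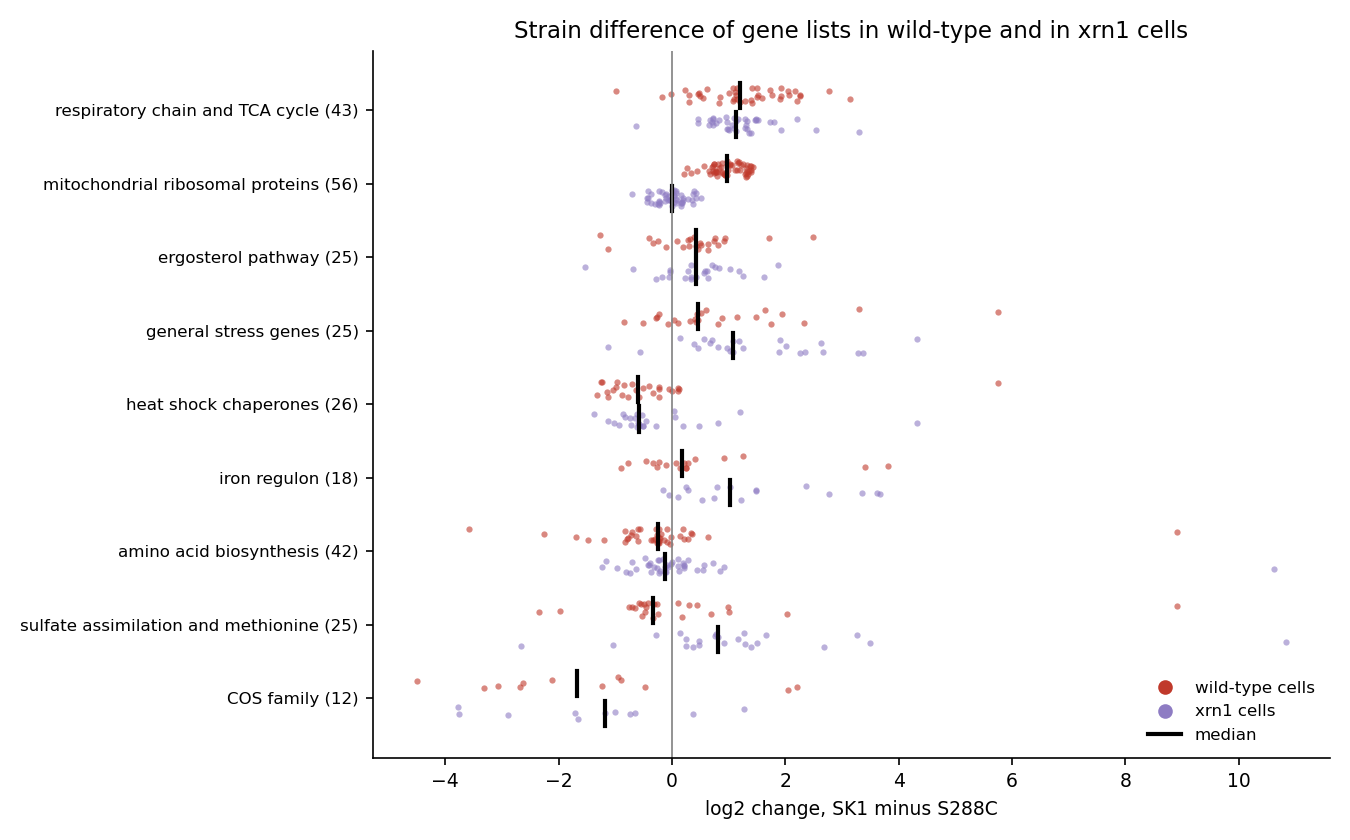
Change (log2, SK1 minus S288C) of each member of selected gene lists in wild-type cells and in xrn1 cells (xrn1 cells without genes on chromosome 11), with the median of each list marked. The mitochondrial ribosomal genes lie above 0 in wild-type cells (median 0.97) and around 0 in xrn1 cells, while most respiratory genes lie above 0 in both.

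Of 26 heat shock chaperone genes 15 fell and 1 rose, 10 did not pass the test, and the median was -0.61. In xrn1 cells 14 were lower (30.5% of all mRNAs) and 3 higher (17.2%). The libraries labelled diploid against the other YAM1 pair gave 8 higher (35.1% of all mRNAs) and 9 lower (36.0%). SSA3, a stress-induced Hsp70, had 0.0592 and 0.0483 in SK1 against 0.126 and 0.122 in S288C (-1.13, SE 0.13). HSC82, the constitutive Hsp90, had 8.43 and 6.55 in SK1 against 15.3 and 14.1 in S288C (-0.98, SE 0.13), and the co-chaperones SIS1 and STI1 fell by 1.26 and 1.03. The member that rose was HSP12, a small membrane-associated protein induced by the stress factors Msn2 and Msn4, with 2.78 and 3.04 in SK1 against 0.0381 and 0.0609 in S288C (5.75, SE 0.20, adjusted p = 8.28e-16).

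HSP12 also belongs to 25 general stress genes, of which 11 rose and 1 fell (median 0.46). HOR7, induced by osmotic stress, had 23.7 and 19.4 in SK1 against 4.12 and 4.41 in S288C (2.33, SE 0.12), and MSC1, XBP1 and UGX2 rose by 1.74, 1.65 and 1.16. SOL4 had 0.0908 and 0.0335 in SK1 against 0.0105 and 0.00986 in S288C (1.95, SE 0.32), with its SK1 replicates far apart from each other. Its change was 1.30 without SK1 replicate 1 and 2.60 without SK1 replicate 2. On the other scales 16 rose and 2 fell (equal mRNA medians) and 16 rose and 1 fell (equal total reads). Against the other YAM1 pair 10 were higher (33.7% of all mRNAs) and 8 lower (38.8%). Without SK1 replicate 1 the members that fell were 4, without any other library 0, and without SK1 replicate 2, 17 rose. CCCCT, the core of the stress response element, is in 24 of these 25 promoters on either strand, in 45.3% of the 364 promoters of mRNAs that rose by at least 2-fold and in 34.5% of all 5700.

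All 5 flocculin genes were higher in SK1. Flocculins are cell-wall proteins that bind other cells or surfaces. FLO11, needed for invasive growth (chr9:389572-393675, minus strand), had 3.00 and 3.59 in SK1 against 0.00865 and 0.00617 in S288C (7.97, SE 0.20, adjusted p = 1.32e-19). FLO10 had 2.37 and 2.26 in SK1 against 0.0256 and 0.0282 in S288C (6.15, SE 0.33), and FLO9 had 0.746 and 0.778 in SK1 against 0.00736 and 0.00643 in S288C (5.92, SE 0.13). FLO1 (3.02) and FLO5 (1.24) rose as well, and repeats of these genes are alike enough to share reads. FLO8 fell by 0.33 (adjusted p = 0.0477), a call that ended with libraries scaled to equal total reads, and without SK1 replicate 2 (-0.10), S288C replicate 1 (-0.30) or S288C replicate 2 (-0.37).

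Beside FLO11 lie non-coding RNAs known to act on its promoter. ICR1 (chr9:393884-397082, minus strand) runs through that promoter, and PWR1 (chr9:395999-396939, plus strand) runs against ICR1. PWR1 had 485 and 311 reads in SK1 against 3 and 3 in S288C (4.22, SE 0.27). ICR1 had densities of 0.0946 and 0.0989 in SK1 against 0.0772 and 0.0707 in S288C (0.36, SE 0.15, adjusted p = 0.0426). PWR1 was thus far higher in SK1. The call of ICR1 ended without any 1 of the 4 libraries, with changes between 0.30 and 0.42. Both were picked out after their values were seen.

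AMN1, an antagonist of mitotic exit in daughter cells, had 0.768 and 0.798 in SK1 against 1.60 and 1.56 in S288C (-1.01, SE 0.18). Genes for the separation of daughter cells were picked out after their values were seen. CTS1, the chitinase that splits the septum, had 0.0877 and 0.0801 in SK1 against 4.63 and 4.07 in S288C (-5.60, SE 0.17). The daughter-specific genes DSE2 (-5.46), DSE1 (-5.25), SCW11 (-4.51) and DSE4 (-2.53) fell too. Among cell-wall mannoproteins TIP1 had 0.0897 and 0.0934 in SK1 against 1.72 and 1.66 in S288C (-4.12, SE 0.33), whereas CWP1 rose by 2.40.

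Among nutrient transporters, the copper transporter CTR3 had 2.35 and 1.92 in SK1 against 0.0507 and 0.0590 in S288C (5.14, SE 0.16). THI7, the thiamine transporter, had 2.42 and 2.68 in SK1 against 0.264 and 0.272 in S288C (3.22, SE 0.14), and of 19 thiamine and vitamin B6 genes 12 rose and 2 fell, the rises including THI5 (2.53) and its near-identical relatives THI12 (2.00) and THI11 (1.32). Between the libraries labelled diploid and the other YAM1 pair 10 were higher and 8 lower. Without SK1 replicate 2, or without S288C replicate 2, 1 of them fell. PTR2, the peptide transporter, had 0.0201 and 0.0137 in SK1 against 1.86 and 1.94 in S288C (-6.41, SE 0.18). REE1, reported to act on enolase, had 0.0174 and 0.0190 in SK1 against 2.08 and 2.09 in S288C (-6.45, SE 0.15). No SK1 value of these genes lay within the range of S288C.

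Of 18 genes of the iron regulon, which Aft1 induces when iron is short, 5 rose and 2 fell (median 0.18). HMX1, heme oxygenase, had 0.652 and 0.544 in SK1 against 0.0372 and 0.0369 in S288C (3.81, SE 0.14), and the reductase gene FRE4 had 0.471 and 0.408 in SK1 against 0.0366 and 0.0359 in S288C (3.40, SE 0.17). In xrn1 cells 12 were higher (17.2% of all mRNAs) and 1 lower (30.5%), with a median of 0.91. Against the other YAM1 pair 2 were higher and 14 lower, so the direction of this list in wild type depended on which S288C libraries were used. Without SK1 replicate 1, 6 fell. The change of HMX1 against that pair was 2.86 and that of FRE4 0.30.

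Of 42 amino acid genes 18 fell and 3 rose (median -0.25). At equal mRNA medians 8 rose and 20 fell, and at equal total reads 8 rose and 17 fell. Haploid SK1 against the other YAM1 pair gave 5 higher and 29 lower (median -0.38). In xrn1 cells 8 were higher and 13 lower, and at equal mRNA medians 16 were higher and 13 lower. The direction of the list was the opposite between the libraries labelled diploid and the other YAM1 pair, with 27 higher, 8 lower and a median of 0.57. BAT2, an aminotransferase for branched-chain amino acids, had 0.383 and 0.301 in SK1 against 1.71 and 1.59 in S288C (-2.26, SE 0.17), and LYS20 and LYS21, homocitrate synthases of lysine synthesis, fell by 1.69 and 1.48. TGACTC, the core of the Gcn4 site, is in 28 of the 42 promoters on either strand and in 12.9% of all 5700. Of 25 sulfate and methionine genes 13 fell and 6 rose, and without SK1 replicate 2, 8 fell. The direction of this list turned in both contrasts without shared libraries. In xrn1 cells 17 were higher and 4 lower (median 0.78), and of the 23 off chromosome 11, 17 were higher and 2 lower. Between the libraries labelled diploid and the other YAM1 pair, 15 were higher and 3 lower. The S-methylmethionine permease MMP1 fell by 2.34 and the sulfate permease SUL1 rose by 2.03.

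Of 138 ribosomal protein genes 8 rose and 21 fell, with a median of -0.10, close to that of all mRNAs. With equal mRNA medians 28 rose and 27 fell, and with equal total reads 36 rose and 14 fell, so no direction held across scales. In xrn1 cells 2 were higher and 77 lower, and of the 133 off chromosome 11, 2 were higher and 72 lower. Between the libraries labelled diploid and the other YAM1 pair 101 were higher and 11 lower. Without SK1 replicate 1, without S288C replicate 1 and without S288C replicate 2, 3, 3 and 4 of them rose, and without SK1 replicate 2 or S288C replicate 1, 7 fell. XRN1, the exonuclease after which XUTs are named, had 0.748 and 0.588 in SK1 against 1.62 and 1.57 in S288C (-1.26, SE 0.14), and the decapping activator DHH1 fell by 0.97. Of 23 genes for decay from the 5' end and nonsense-mediated decay 1 rose and 8 fell, where 19.1% of all mRNAs rose and 29.7% fell. The median of these genes was -0.18, against -0.11 over all mRNAs, and 4 fell without SK1 replicate 2 and 5 without S288C replicate 1. Against the other YAM1 pair, at equal mRNA medians, 9 were higher (33.7% of all mRNAs) and 8 lower (38.8%).

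Of 12 regulators of meiotic entry 1 rose and 5 fell, and without SK1 replicate 2, 3 fell. RIM4, which holds meiotic mRNAs from translation, had 0.0801 and 0.0504 in SK1 against 0.00650 and 0.00838 in S288C (2.40, SE 0.20). IME1, the master regulator of meiosis, had 0.00216 and 0.00216 in SK1 against 0.00913 and 0.00719 in S288C (-0.81, SE 0.20), near the pseudocount in both strains. Of 26 meiosis and sporulation genes tested 5 rose and 5 fell, where 19.1% of all mRNAs rose and 29.7% fell. SPO16, of the crossover pathway, changed by -2.09 and SPO1, a phospholipase homologue, by 1.13. At equal mRNA medians 9 of the 26 rose and 5 fell, and at equal total reads 11 rose and 5 fell. In xrn1 cells 4 were higher (17.2% of all mRNAs) and 10 lower (30.5%).

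Some genes had next to no reads in one strain only. Of mRNAs with at least 100 reads in both S288C libraries, 12 had at most 3 in each SK1 library. SGE1, a multidrug exporter, had 3 and 0 reads in SK1 against 1630 and 3519 in S288C. The secreted asparaginase gene ASP3-1 had 1 and 0 reads in SK1 against 1008 and 2329 in S288C, and its copies ASP3-2, ASP3-3 and ASP3-4, which share its reads, had 0 to 2 in SK1 against 1014 to 2448 in S288C. ARR1, the activator of arsenic resistance, had 1 and 0 reads in SK1 against 487 and 922 in S288C. YER138W-A had 0 and 0 reads in SK1 against 373 and 679 in S288C, at least 157-fold lower, and MAL11, an alpha-glucoside permease, had 0 and 0 reads in SK1 against 145 and 309 in S288C, at least 65.8-fold lower.

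The remaining members of the 12 were HMRA1, described above, and BDS1, PRM8 and YOL159C-A, named after their values were seen. In the 6 further rRNA-depleted SK1 libraries, SGE1 had at most 5 reads and ASP3-3 at most 3. ARR1 had at most 2, MAL11 at most 1 and YER138W-A at most 7. HMRA1 had 122 and 91 reads in the wild type labelled diploid, and 304 and 341 in xrn1 cells labelled diploid SK1. In xrn1 cells of haploid SK1 it had 0 and 0. In the other direction, YMR321C had 1342 and 1006 reads in SK1 against 0 and 3 in S288C and YFR057W had 155 and 106 reads in SK1 against 3 and 1 in S288C. YAL065C, outside that rule, had densities of 2.94 and 3.63 in SK1 against 0.00232 and 0.00224 in S288C (8.67, SE 0.36).

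Neighbouring genes changed together in 8 runs of at least 4 mRNAs, each called and at least 2-fold. The longest, 8 genes at the right end of chromosome 16 (chr16:931376-947701), fell. They include YPR196W (-1.14), SGE1 (-6.27), ARR1 (-5.35), the arsenate reductase ARR2 (0 reads in both SK1 libraries), the arsenite exporter ARR3 (-2.31) and YPR204W (-1.73). Next to it QCR2, the aquaporin AQY1, HPA2 and OPT2 rose by 1.72, 2.58, 1.31 and 2.52. On chromosome 4 (chr4:523211-538467) EHD3, KRS1, ENA5, ENA2 and ENA1 fell. The sodium pump ENA1 had 0.00997 and 0.00428 in SK1 against 0.292 and 0.292 in S288C (-4.57, SE 0.18), and ENA2 (-4.89) and ENA5 (-4.72) are tandem copies that share its reads. KRS1, the lysyl-tRNA synthetase beside them, had 1.87 and 1.69 in SK1 against 4.93 and 4.78 in S288C (-1.45, SE 0.12).

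**Figure D4:**
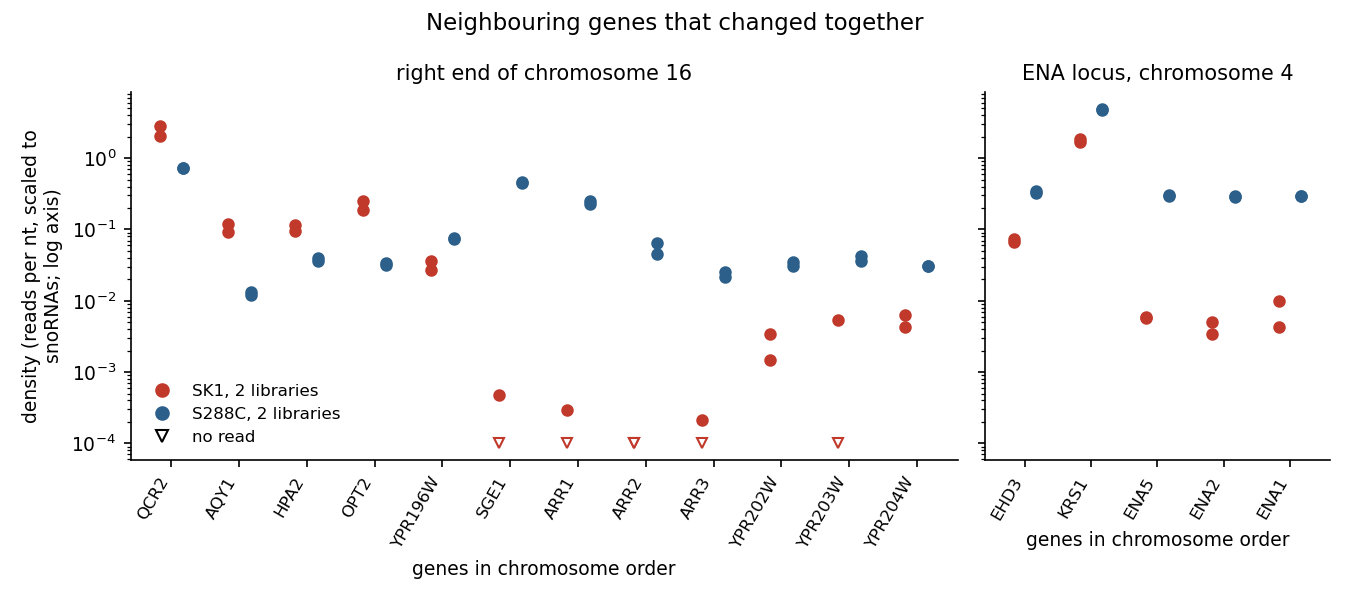
Density (reads per nucleotide scaled to snoRNAs, log axis) of genes in chromosome order at the right end of chromosome 16 and at the ENA locus of chromosome 4, in the 2 SK1 libraries (left of each pair) and the 2 S288C libraries (right). QCR2 to OPT2 lie higher in SK1 and the genes from YPR196W on lie lower, with 0 to 3 reads of SGE1 in each SK1 library.

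Differences were denser near chromosome ends. Of 107 mRNAs under 10 kb from an end, 14 rose by at least 2-fold (13.1%) and 39 fell (36.4%). Between 10 and 30 kb 16.1% rose and 15.3% fell (of 248), and at 100 kb or more 5.77% rose and 4.38% fell (of 4316). All 8 genes of the Y' helicases, which lie in elements next to telomeres, fell (median -1.79), for example YRF1-1 with 0.00356 and 0.00236 in SK1 against 0.0328 and 0.0295 in S288C. Of 12 COS genes, for membrane proteins that help sort others to the vacuole, 2 rose and 10 fell. COS3 had 0.00682 and 0.00792 in SK1 against 0.293 and 0.291 in S288C (-4.50, SE 0.15), and COS12 had 0.160 and 0.150 in SK1 against 0.0267 and 0.0409 in S288C (2.05, SE 0.23). Members of both families are alike and share reads. Without the mRNAs under 30 kb from an end, 1003 rose and 1571 fell of 5405.

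**Figure D5:**
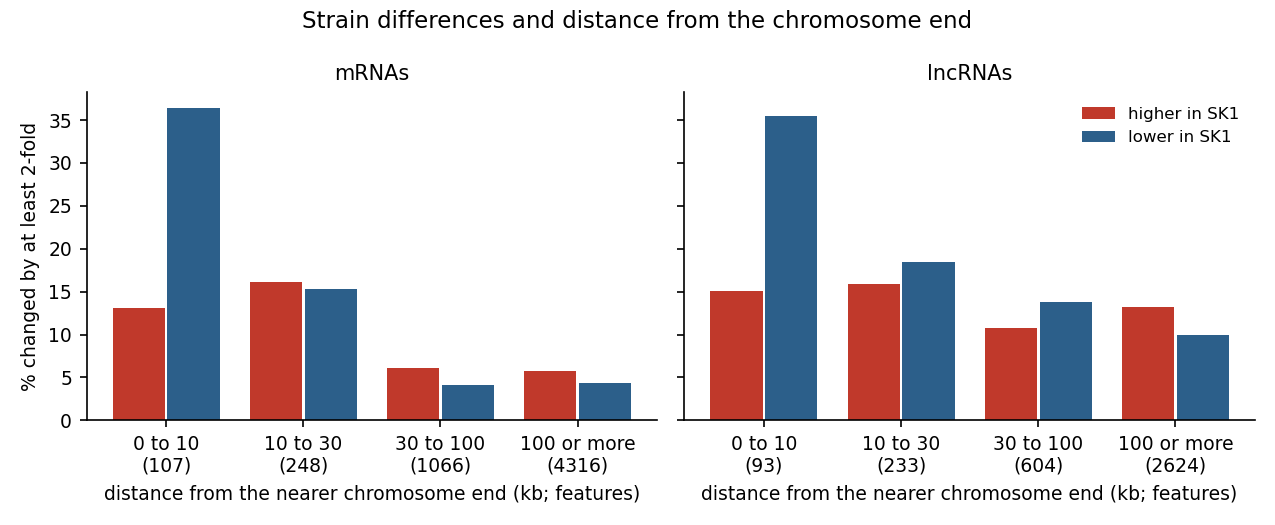
Percentage of mRNAs and of lncRNAs that rose or fell by at least 2-fold in SK1, by distance from the nearer chromosome end in kb. Falls reach 36.4% of mRNAs and 35.5% of lncRNAs under 10 kb from an end.

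By at least 2-fold, 297 rose and 254 fell of 1798 XUTs, 102 and 58 of 923 CUTs, and 65 and 108 of 839 SUTs. The balance of SUTs depended on the scale, with 92 rises and 111 falls at equal mRNA medians and 84 of each at equal total reads. Differences between the classes were not tested. CUT122 (chr6:106927-107215, plus strand) lies 40 nt before HSP12 on the same strand and had densities of 0.522 and 0.534 in SK1 against 0.0109 and 0.0150 in S288C (4.85, SE 0.14). XUT0500 (chr9:388525-389362, plus strand) lies 209 nt from the 3' end of FLO11 on the other strand and had 0.135 and 0.101 in SK1 against 0.000536 and 0.00129 in S288C (4.20, SE 0.24). XUT1752 (chr16:191408-192786, minus strand), opposite POS5 and 861 nt from MF(ALPHA)1, had 842 and 605 reads in SK1 against 0 and 1 in S288C (4.76, SE 0.32). HSP12, FLO11 and MF(ALPHA)1 rose, and POS5 had a change of -0.05. Neighbours were looked up after the values were seen.

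XUT0400 lies opposite RIE1 and rose by 4.40, while RIE1 had a change of -0.20 and MGA1, 1496 nt away on the same strand, one of 2.19. XUT0243 lies opposite VPS3 and rose by 4.18, while VPS3 had a change of 0.09 and RSM28, 711 nt away on the same strand, one of 1.32. Of the lncRNAs that fell most, XUT0355, XUT1561 and XUT0546 lie wholly within annotated Ty elements, the retrotransposons of yeast. XUT0355 had densities of 0.00165 and 0.00231 in SK1 against 0.657 and 0.620 in S288C (-6.38, SE 0.13). XUT0084 (chr3:30875-31296, plus strand) and XUT0109, outside Ty elements, had 1 and 0 reads in SK1 against 433 and 914 in S288C and 2 and 1 reads in SK1 against 443 and 1087 in S288C.

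Of 96 lncRNAs tested with at least 50% of their length in a Ty element, 29 rose and 60 fell by at least 2-fold, with a median change of -2.89. Of 3432 outside Ty elements and long terminal repeats, 425 rose (12.4%) and 347 fell (10.1%). Copies of a Ty element are alike and share reads. Antisense lncRNAs were sorted by the mRNA they overlap by at least 200 nt. Opposite mRNAs that rose by at least 2-fold, 6.95% of 187 lncRNAs rose and 14.4% fell. Opposite mRNAs that fell by at least 2-fold, 25.4% of 122 rose and 10.7% fell. Opposite all other mRNAs, 11.1% of 1547 rose and 6.79% fell. These shares were not tested, since overlapping lncRNAs share reads.

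Of the 372 mRNAs that rose by at least 2-fold in wild-type SK1, 285 were called higher in xrn1 SK1 (76.6%) and 17 lower, where 17.2% of all mRNAs were called higher. Of the 312 that fell, 250 were called lower (80.1%) and 4 higher, where 30.5% of all were called lower. Among lncRNAs, 283 of the 464 that rose were called higher (61.0%, against 15.9% of all) and 53 lower, and 394 of the 420 that fell were called lower (93.8%, against 57.9% of all) and 4 higher.

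The libraries labelled diploid SK1, whose markers are given above, were set against the other YAM1 pair at equal mRNA medians. There 326 of the 372 mRNAs that rose were called higher (87.6%, against 35.1% of all mRNAs) and 7 lower. Of the 312 that fell, 275 were called lower (88.1%, against 36.0% of all) and 12 higher. The xrn1 contrast does not use these libraries.

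The strain difference in xrn1 cells was compared with that in wild-type cells by an interaction term, added after the values were seen. HO was lower in wild-type SK1 (-4.003) and had a change of -0.17 in xrn1 cells, a difference of 3.83 (SE 0.19, adjusted p = 7.41e-12). Of 56 mitochondrial ribosomal genes 53 had a lower strain difference in xrn1 cells than in wild type (94.6%, against 18.6% of all mRNAs). The 56 include 7 on chromosome 11, which carry its offset. Among the 49 off chromosome 11, 7 were called higher in xrn1 SK1 and 7 lower, with a median of 0.01. For the respiratory chain and TCA cycle, 5 of 43 had a higher strain difference in xrn1 cells (13.5% of all mRNAs) and 13 a lower one. Of the 43, 4 are on chromosome 11, and 38 of the 39 off it were still called higher in xrn1 SK1.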

How the data were processed

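Total RNA was isolated with hot phenol, depleted of rRNA, and made into stranded TruSeq libraries, per the labels' protocols. The submitters' processing notes name cutadapt, Bowtie and TopHat, without versions. Neither a genome build nor a counting tool is given in the sources used here. The deposited values are a signal, a density that the authors computed as reads per nucleotide of each feature and scaled to equal snoRNA sums. Whole reads could be recovered for 100% of values (tolerance 0.01). Log2(density plus pseudocount) entered a linear model (limma 3.58.1 under R 4.3.3; lmFit, eBayes with trend and robust) over 24 rRNA-depleted libraries, 2 in each group, with 12 residual degrees of freedom. A feature was tested where at least 2 libraries reached the pseudocount, which was set at the 5th percentile of densities above 0. On simulated data with known changes the fit recovered 71 of 112 changes of 2-fold and 85 of 88 of 4-fold, with 13 false calls among 9512 unchanged features. The simulation used the same assumed dispersion for every feature and exact library scales. Its rates are therefore not the error rates of the real libraries.

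Members and gene lists were chosen with earlier results of these data known. Named, among features called, at least 2-fold changed, not overlapping between strains and above the median density of their class, were the 12 mRNAs that rose and the 12 that fell most, and 5 lncRNAs each way. Also named were up to 8 mRNAs nearly without reads in either strain, members of runs, and up to 6 members of each list by adjusted p (lists of up to 12 may be named whole) plus any that the list turns on. Alternatives were other pseudocounts and filters, other scalings, voom on recovered reads, fewer libraries, a replicate block, another S288C or SK1 pair, and parts of the genome. The strain-by-xrn1 interaction and the swapped pairs at equal mRNA medians were added after the data were seen.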

Additional observations from a re-analysis of the deposited data

Results flagged for a closer look

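Among the features named, 7 outside chromosome 11 had a strain difference in xrn1 cells that differed from that in wild-type cells by the interaction term, on the deposited scale and at equal mRNA medians (limma, Benjamini-Hochberg over 9712 features). They were also either called in opposite directions in the 2 contrasts, or changed by at least 2-fold in wild type and not called in xrn1 cells. Each was lower or higher in both SK1 libraries than in both S288C libraries of the wild type. Such a gap between 2 and 2 libraries is common. Of 138 ribosomal protein genes, 19 lay higher and 70 lower in this way. For HO the interaction was 3.83 (adjusted p = 7.41e-12), as given above. COS12, one of the COS genes that share reads, had a change of 2.05 in wild type and -3.77 in xrn1 cells, an interaction of -5.82 (adjusted p = 2.24e-11). SPO16 had -2.09 in wild type and -0.12 in xrn1 cells (interaction 1.97, adjusted p = 6.74e-06). FLO5, which also shares reads with its relatives, had 1.24 and -0.47 (interaction -1.71, adjusted p = 7.31e-07). MRPL32 had 1.40 and -0.11 (interaction -1.51, adjusted p = 5.04e-07). PHO4 had -0.92 and 0.44 (interaction 1.36, adjusted p = 5.59e-05), and HMRA2 had 1.33 and 0.11 (interaction -1.22, adjusted p = 1.17e-04). Such differences were common: of 5449 mRNAs off chromosome 11, 1598 differed by the interaction term on the deposited scale and 2717 at equal mRNA medians. Called in opposite directions in the 2 contrasts were 150 and 401 of them. The cause of the differences was not tested. The libraries of xrn1 cells and of wild type are separate strains in both backgrounds.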

How the results depend on the processing

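Scaling to equal mRNA medians gave 1809 mRNAs higher, and to equal total reads 1944. With libraries of the other YAM1 pair in place of S288C, 3393 mRNAs rose and 506 fell, and 1540 lncRNAs rose and 545 fell. With those libraries and equal mRNA medians, 1942 mRNAs rose and 2232 fell. With the libraries labelled diploid in place of haploid SK1, 154 mRNAs rose and 5250 fell, and 188 lncRNAs rose and 2464 fell. With those libraries and equal mRNA medians, 2076 mRNAs rose and 1878 fell. Leaving out 1 library at a time gave 861 to 1156 mRNAs higher and 1061 to 1943 lower, and 801 to 920 lncRNAs higher and 733 to 888 lower. Only with the compared libraries 949 mRNAs rose and 1357 fell, and limma voom on recovered reads gave 1153 and 1784. Replicate numbers did not pair the samples (correlation of same-numbered deviations -0.13), and a fit with the replicate block gave 1082 mRNAs higher and 1656 lower. Without the mating, marker and phosphate lists 1072 rose and 1679 fell of 5690.

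In xrn1 cells 2031 mRNAs were higher at equal mRNA medians and 1554 at equal total reads, and with only the compared libraries 1767 were higher and 2866 lower. Leaving out 1 library gave 783 to 833 higher and 1327 to 1413 lower. For libraries labelled diploid against the other YAM1 pair, 2023 were higher and 2073 lower at equal mRNA medians, and 886 higher at equal total reads, while leaving out 1 library gave 242 to 318 higher and 4221 to 4605 lower. Against W303, 2013 were higher at equal total reads and 731 lower with only the compared libraries, and leaving out 1 library gave 950 to 1406 higher and 710 to 1442 lower. For libraries labelled diploid against haploid SK1, 1969 were higher and 1696 lower at equal mRNA medians, and 217 higher at equal total reads, while leaving out 1 library gave 32 to 56 higher and 5299 to 5417 lower.

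A change counted as turned where a called one reversed its sign, or where an uncalled one was called with the opposite sign. Sign turns of uncalled changes that stayed uncalled were not counted. Among named features, log2 changes turned in this sense only where a pair of libraries was replaced, and the cause was not tested. With the libraries labelled diploid these were PHO3 (-1.42), HMLALPHA2 (-0.79), KAR4 (-1.78), FUS1 (-2.05), MRPL32 (-0.58), CIT2 (0.72), MATALPHA2 (-0.94), HMRA2 (-1.57), GIT1 (-0.89), UGX2 (-0.59), PHM8 (-1.02), COS12 (-0.45), MRPS35 (-0.56), ICR1 (-0.70), STE18 (-2.73), THI11 (-0.34), CWP1 (-0.0022), MSC1 (-0.98), PRM1 (-0.56), SPO1 (-0.29), CIT1 (-0.82), PHM7 (-0.36), ADE2 (-1.42), STE4 (-3.14) and HPA2 (-1.44). With the same libraries at equal mRNA medians they were LYS2 (0.71), KAR4 (-0.17), CIT2 (2.40), HMRA2 (-0.12), TRP1 (0.40), CAN1 (0.26), FLO8 (0.12), ENO2 (0.44), STE18 (-1.15), ACO1 (1.05), HSC82 (0.35), STI1 (0.26), HIS3 (0.93), STE4 (-1.55) and HPA2 (-0.17). With the other YAM1 pair they were TRP1 (0.20), CAN1 (0.59), FLO8 (0.23), GPA1 (1.04), COX5B (1.15), IME1 (0.059), SIS1 (0.0065) and HIS3 (0.68), and at equal mRNA medians COX5B (0.60). With the libraries labelled diploid on the deposited scale, 154 of all mRNAs rose and 5250 fell. Of the named features that turned there, only KAR4, CIT2, HMRA2, STE18, STE4 and HPA2 also turned at equal mRNA medians. Reads bound what depth can show: IME1 and genes near the pseudocount rest on few reads, and bounds for genes without reads cover counting error only.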
